A study of Triticum aestivum with 15 samples.

Results

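The Reduced height-1 (Rht-1) genes of bread wheat (Triticum aestivum) were followed through leaves and roots of plants deprived of iron. The 3 homoeologous copies are Rht-A1 (TraesCS4A02G271000, chromosome 4A), Rht-B1 (TraesCS4B02G043100, chromosome 4B) and Rht-D1 (TraesCS4D02G040400, chromosome 4D). They were chosen by identifier, not by any measured value, and are 3 of the 269207 gene models in the count table. All 3 passed the filter on low counts. The plants were wild-type cultivar Fielder, a spring wheat used for transformation. They grew in hydroponic boxes for 12 days with 50 µM iron and then for up to 11 days with 0 µM iron. The 15 mRNA libraries form 5 groups of 3. Leaf 1 was taken at the change of solution (day 0, with iron until then) and again on day 1, leaf 3 on day 7, and leaves 3 to 5, called upper leaves here, together with the roots on day 11. Each group carries the numbers of the same 3 plants. Days without iron, plant age and, after day 1, the leaf taken change together, and no iron-fed library later than day 0 entered the comparisons, so their parts cannot be told apart.

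Rht-1 encodes DELLA proteins, nuclear repressors of growth. When gibberellin binds its receptor GID1, the receptor contacts the DELLA protein, which is then marked by an F-box protein and degraded, and growth genes are released. Semi-dwarf wheats of the Green Revolution carry altered Rht-B1 or Rht-D1 alleles whose products resist this degradation. DELLA activity is thus set largely at the protein, which RNA counts do not measure. The sources used here do not name the Rht-1 alleles of Fielder, and counts per gene do not show it.

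Library totals ran from 15434838 counts for plant 3 on day 0 to 25552816 for the roots of plant 3, and each library held 1208 to 3383 counts of the Rht-1 copies together. The library of plant 3 on day 7 stood apart from its group, with chi-square values per degree of freedom across genes of 73.6 and 46.9 against the other plants, which differed from each other by 22.2. The tissue labels could not be checked against marker genes, because the table pairs no identifier with a gene name. In whole leaves and roots, fewer cells that express a gene and less RNA of it per cell cannot be told apart.

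Rht-A1 stood at 28.3, 35.3 and 55.2 CPM in the first leaves of plants 1, 2 and 3 on day 0, where CPM are counts scaled to a fixed library size by the TMM method over all 15 libraries. On day 1 the same plant numbers held 26.0, 28.9 and 19.6 CPM, and on day 7 leaf 3 held 18.0, 20.5 and 26.2 CPM. The upper leaves of day 11 held 20.4, 17.1 and 19.5 CPM. Day 0 was the highest leaf stage and the most scattered, and its libraries did not overlap those of day 7 or day 11. The share of all genes whose libraries separate in this way was not counted, here or for the other copies. The roots stood at 37.3, 37.0 and 37.3 CPM, above every library of days 1, 7 and 11 and within the range of day 0. With library totals alone, that is without the TMM factors, they held 49.4, 49.5 and 48.5 CPM, above every day 0 library. Group means ran from 39.6 CPM ± 13.9 (SD, n = 3) on day 0 and 37.2 CPM ± 0.188 in roots to 24.8 CPM ± 4.78 on day 1, 21.6 CPM ± 4.18 on day 7 and 19.0 CPM ± 1.74 on day 11 (SD, n = 3). In this order the libraries of neighbouring groups overlapped, except between roots and day 1.

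Rht-B1 stood at 50.1, 55.5 and 92.0 CPM in plants 1, 2 and 3 on day 0 and at 61.1, 62.4 and 51.1 CPM on day 1. The values on day 7 were 25.5, 29.2 and 37.5 CPM, and those of the upper leaves on day 11 were 33.2, 30.2 and 28.6 CPM. Every first leaf thus lay above every later leaf. The roots held 44.1, 47.5 and 44.6 CPM, between the first and the later leaves and overlapping neither. With library totals they held 58.3, 63.5 and 58.1 CPM, above every day 1 leaf and within the range of day 0. The means were 65.9 CPM ± 22.8 on day 0, 58.2 CPM ± 6.18 on day 1, 45.4 CPM ± 1.82 in roots, 30.8 CPM ± 6.16 on day 7 and 30.6 CPM ± 2.36 on day 11 (SD, n = 3). The libraries of days 0 and 1 overlapped, as did those of days 7 and 11.

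Rht-D1 took the fewest counts and stood at 22.3, 27.2 and 30.3 CPM on day 0 and 25.7, 28.3 and 16.8 CPM on day 1. Leaf 3 on day 7 held 9.27, 9.99 and 15.1 CPM, against 10.8, 11.6 and 9.38 CPM for the upper leaves on day 11. Again no first leaf overlapped a later leaf with TMM. With library totals plant 3 held 13.9 CPM on day 1 and 14.2 CPM on day 7. The roots held 21.5, 21.3 and 17.9 CPM, above all later leaves and within the range of day 1. With library totals they held 28.4, 28.5 and 23.3 CPM, above every day 1 leaf. The means were 26.6 CPM ± 4.01 on day 0, 23.6 CPM ± 6.03 on day 1, 20.3 CPM ± 2.02 in roots, 11.5 CPM ± 3.18 on day 7 and 10.6 CPM ± 1.15 on day 11 (SD, n = 3). Summed over the copies, the level was 132 CPM ± 40.2 on day 0, 107 CPM ± 16.9 on day 1, 63.8 CPM ± 13.5 on day 7, 60.3 CPM ± 3.72 on day 11 and 103 CPM ± 2.98 in roots (SD, n = 3).

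**Figure D1:**
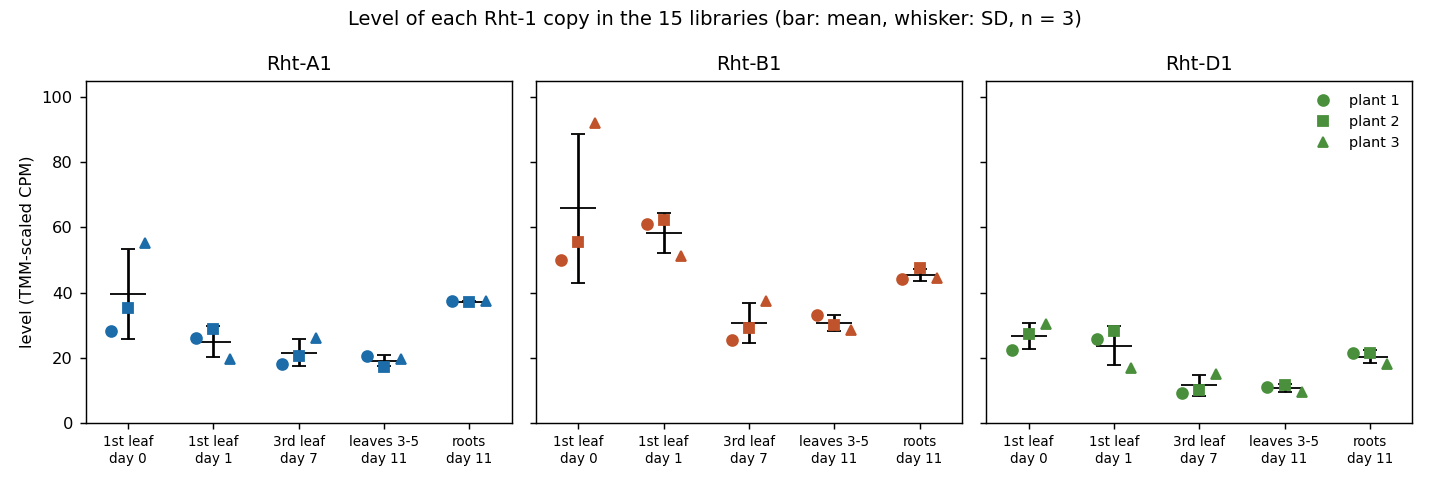
Level of each Rht-1 copy in TMM-scaled CPM (y axis) in the 5 groups (x axis), with 1 point per plant, the mean as a bar and the SD as a whisker (n = 3). For Rht-B1 and Rht-D1 all first leaves lie above all day 7 and day 11 leaves, and for Rht-A1 this holds for day 0 only. The roots stand above the day 11 leaves in each panel.

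All 3 copies fell from the first leaf on day 0 to the third leaf on day 7, where edgeR called 28.2% of the 62841 genes tested and 13.9% were lower. Rht-A1 fell by 0.88 on the log2 scale (SE 0.25, edgeR adjusted p = 0.0227), which is 1.85-fold. Rht-B1 fell by 1.11 (SE 0.23, edgeR adjusted p = 0.00589) and Rht-D1 by 1.22 (SE 0.24, edgeR adjusted p = 0.00393), 2.15-fold and 2.33-fold. Each was lower in 3 of 3 plants. The median over the copies was -1.11, beside a median log2 fold change of 0.09 over all genes tested. Without plant 2 no copy was called, at -0.93, -1.18 and -1.12 for Rht-A1, Rht-B1 and Rht-D1 (edgeR adjusted p = 0.179, 0.103 and 0.104), and of all genes 3.77% were called. Rht-A1 was not called without plant 1 (-0.96, edgeR adjusted p = 0.0688) or with only the 2 groups in the fit (-0.88, 0.0901), and in the latter Rht-B1 was not either (-1.10, 0.0517), where 14.9% and 14.3% of genes were called. The highest day 0 values of Rht-A1 and Rht-B1 were those of plant 3, and without that library Rht-A1 differed by -0.56 (edgeR adjusted p = 0.0791), while Rht-B1 still fell by 0.78 and Rht-D1 fell by 1.12 (edgeR adjusted p = 0.0131 and 0.0145). In that setting 21.2% of genes were called and 10.9% were lower.

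The upper leaves of day 11 gave nearly the same difference from day 0, where 44.3% of genes were called and 22.7% were lower. Rht-A1 fell by 1.06 on the log2 scale (SE 0.25, edgeR adjusted p = 0.00535), Rht-B1 by 1.11 (SE 0.23, edgeR adjusted p = 0.00272) and Rht-D1 by 1.33 (SE 0.24, edgeR adjusted p = 0.001), 2.09-fold, 2.16-fold and 2.51-fold. Each was lower in 3 of 3 plants, with a median of -1.11 beside 0.12 over all genes. Without the day 0 library of plant 3 the 3 copies were called and fell by 0.74, 0.79 and 1.22 (edgeR adjusted p = 0.0178, 0.00601 and 0.00427). In that setting 37.7% of genes were called and 19.6% were lower. The call of Rht-A1 ended without plant 2 (edgeR adjusted p = 0.0712), where 26% of genes were called. Leaving out the library of plant 3 on day 7 took the day 7 differences to -1.09, -1.32 and -1.51, all still called. There 31.9% of genes were called and 16.4% were lower.

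Set against the first leaf of day 1, which had spent a day without iron, only Rht-B1 and Rht-D1 passed the test. On day 7 Rht-B1 was lower by 0.92 (SE 0.23, edgeR adjusted p = 0.0102) and Rht-D1 by 1.05 (SE 0.23, edgeR adjusted p = 0.00604), where 35.5% of genes were called and 15.9% were lower. On day 11 they were lower by 0.93 (SE 0.23, edgeR adjusted p = 0.00702) and 1.15 (SE 0.24, edgeR adjusted p = 0.00222), where 47.7% of genes were called and 23.3% were lower. Both copies were lower in 3 of 3 plants in each comparison. Rht-A1 differed by -0.21 on day 7 (95% interval -0.75 to 0.34, edgeR adjusted p = 0.564) and by -0.38 on day 11 (-0.93 to 0.16, edgeR adjusted p = 0.223), lower in 2 of 3 and 3 of 3 plants. Without plant 3 Rht-A1 was called too, at -0.57 on both days (edgeR adjusted p = 0.0411 and 0.0372). There 35% and 40% of genes were called on days 7 and 11, and 17.3% and 20.1% were lower. The day 7 calls of Rht-B1 and Rht-D1 ended without plant 1, at -0.77 and -0.85 (edgeR adjusted p = 0.105 and 0.107), where 15.6% of genes were called. They also ended without plant 2, at -0.83 and -0.80 (edgeR adjusted p = 0.157 and 0.152), where 8.88% were called. Their day 11 calls ended without plant 2, at -0.86 and -1.07 (edgeR adjusted p = 0.105 and 0.0517), where 27.5% were called.

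The remaining leaf comparisons gave no call among the copies. From day 0 to day 1, the only step that keeps the leaf position, 0 of 3 copies passed the edgeR test, which called 1.29% of all genes, or 0.516% with the plant as a block. DESeq2 called 0 of 3 copies and 7.34% of all genes. Without adjustment, 11615 of the 62841 genes tested had an edgeR p under 0.05. Of the copies Rht-A1 alone did (edgeR log2 fold change -0.68, 95% interval -1.22 to -0.13, adjusted p = 0.184), and it was lower in 3 of 3 plants. It differed by -0.36 without the day 0 library of plant 3 (edgeR unadjusted p = 0.117) and by -0.19 without plant 3 (edgeR unadjusted p = 0.296). Rht-B1 (-0.18, interval -0.69 to 0.32) and Rht-D1 (-0.18, interval -0.69 to 0.33) were lower in 1 of 3 plants each, plant 3. Between day 7 and day 11 the copies differed by -0.18 (interval -0.72 to 0.37), 0.00 (-0.51 to 0.50) and -0.11 (-0.62 to 0.41), where edgeR called 21.9% of genes. No copy had an edgeR unadjusted p under 0.05 there, while 21751 of the 62841 genes did. DESeq2 called 0 of 3 copies and 26.7% of genes. Over all 4 leaf stages in 1 joint test each copy differed between stages (edgeR adjusted p = 0.0131, 0.00248 and 0.00103 for Rht-A1, Rht-B1 and Rht-D1), as did 55.2% of genes. That joint call ended for all 3 without plant 2 (edgeR adjusted p = 0.137, 0.073 and 0.052), where 23.7% of genes were called.

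Roots held more Rht-1 RNA than the upper leaves harvested on the same day after the same time without iron. Rht-A1 was 2.04-fold higher in roots (edgeR log2 fold change 1.03, SE 0.10, adjusted p = 5.24e-05), Rht-B1 1.54-fold (0.63, SE 0.09, adjusted p = 0.000577) and Rht-D1 1.99-fold (0.99, SE 0.12, adjusted p = 2e-04). Every root library lay above every upper leaf library for each copy, but the share of all genes that separate so was not counted. In this comparison 68.4% of the 67922 genes tested were called and 35.7% were higher in roots, and the median over the copies was 0.99 beside 0.05 over all genes. All 10 alternative analyses of this contrast kept the 3 calls, with log2 fold changes of 0.97 to 1.14, 0.56 to 0.74 and 0.93 to 1.10 for Rht-A1, Rht-B1 and Rht-D1. They called 49.5% to 71.9% of all genes.

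**Figure D2:**
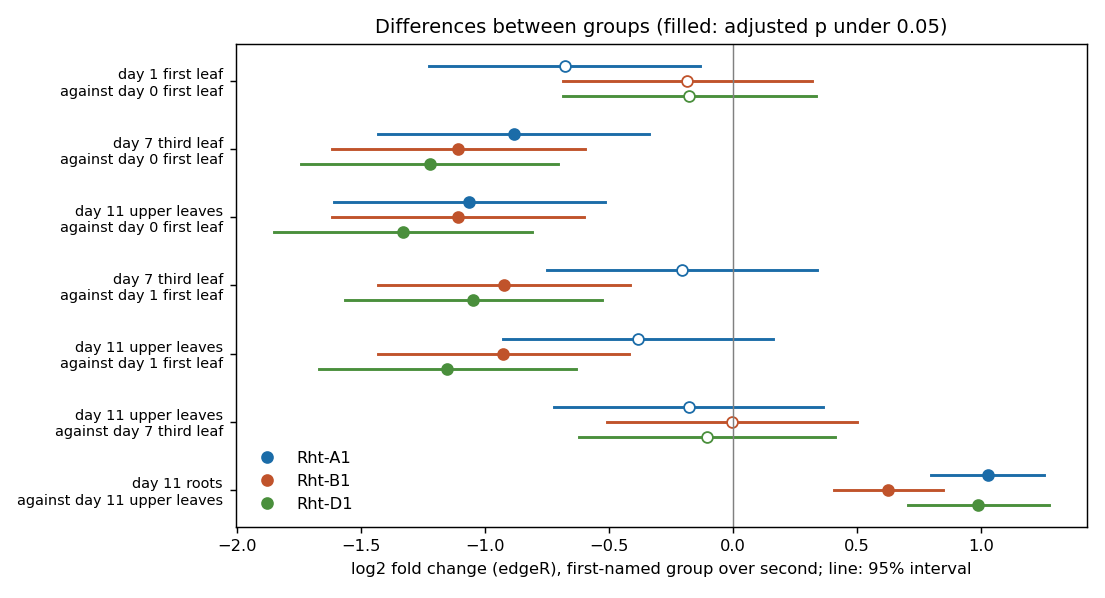
edgeR log2 fold change of each Rht-1 copy (x axis) in the 7 comparisons (y axis), with the 95% interval as a line and a filled point where the adjusted p was under 0.05. The copies fall together from day 0 to days 7 and 11, Rht-A1 is apart from the others against day 1, and all 3 are higher in roots than in day 11 leaves.

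The size of the leaf decreases and the rank of roots among the groups depended on how libraries were scaled. The TMM factors over all 15 libraries were 0.802 to 0.887 on day 0, 1.15 to 1.19 in the day 11 leaves and 1.30 to 1.34 in roots. With library totals alone the median gene moved from 0.12 to 0.60 between day 11 and day 0, and the copies were lower by 0.56, 0.61 and 0.84 (edgeR adjusted p = 0.0501, 0.0267 and 0.00613). There 51.7% of genes were called and 14.4% were lower. A scaling shifts all genes of a library alike, so differences from the median gene stay nearly as they were by construction, at -1.19, -1.23 and -1.45 with TMM and -1.16, -1.21 and -1.44 with library totals for Rht-A1, Rht-B1 and Rht-D1. Under that scaling 27.8% of the genes called between these stages were lower, against 51.3% with TMM. Between day 7 and day 0 the share was 32.1% against 49.2% with TMM. It was 26.6% against 44.7% between day 7 and day 1, 24.8% against 48.9% between day 11 and day 1, 33.7% against 60.1% between day 11 and day 7, and 63.6% against 41.3% between day 1 and day 0. Library totals also turned Rht-A1 to 0.10 on day 7 and 0.19 on day 11 against day 1, neither called, and ended the day 11 call of Rht-B1 against day 1 (-0.35, edgeR adjusted p = 0.159). With that scaling 39.8% of genes were called for day 7 against day 1 and 10.6% were lower. For day 11 against day 1, 55.9% were called and 13.9% were lower.

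**Figure D3:**
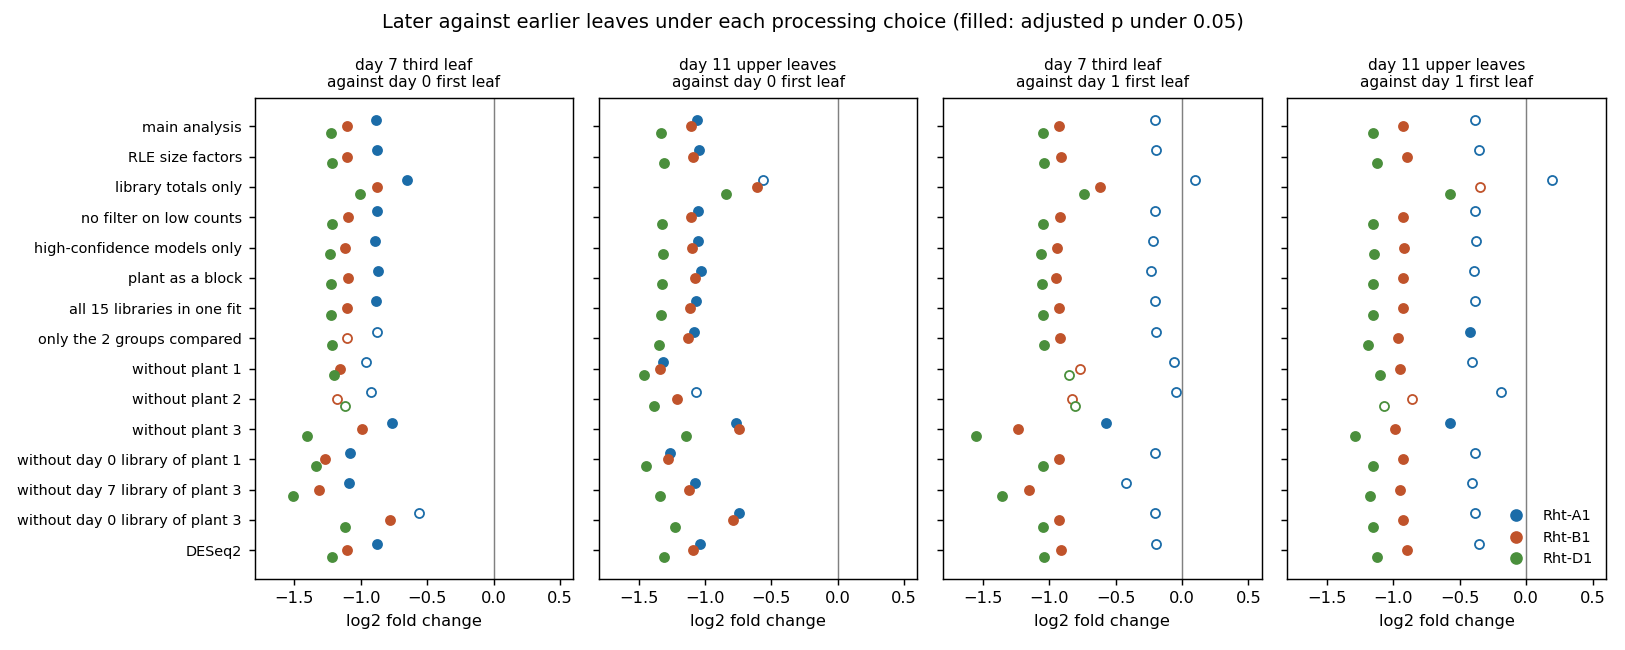
log2 fold change of each copy (x axis) in 4 comparisons of later with earlier leaves under the main analysis and each alternative (y axis). Filled points have an adjusted p under 0.05. Rht-B1 and Rht-D1 stay below 0 throughout, while Rht-A1 crosses 0 against day 1 with library totals, and open points are most frequent without plant 2.

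The balance between the copies needs no scaling, because it is a ratio within a library. The deposited table gives no gene lengths, so shares of the summed Rht-1 counts are given and the copies are not ranked by level per length. Rht-B1 took the largest share of counts in every library and Rht-D1 the smallest, although on day 1 plant 1 held 408 counts of Rht-A1 and 404 of Rht-D1, nearly a tie. The 95% Wilson interval of a library's share reached 1.305 to 2.81 percentage points to either side, for counting error only. No source used here states how the authors' counting treated reads that fit several copies, so the shares are uncertain in that respect. Whether such reads were treated alike in all groups was not tested.

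The share of Rht-A1 was 28.1%, 29.9% and 31.1% in plants 1, 2 and 3 on day 0, 23.0%, 24.2% and 22.4% on day 1, and 34.1%, 34.4% and 33.2% on day 7. It was 31.7%, 29.0% and 34.0% in the upper leaves of day 11 and 36.3%, 35.0% and 37.3% in roots. Day 1 lay below every other library and roots above every leaf, while days 0 and 11 overlapped. How often shares of other homoeologous genes separate in this way was not counted, here or for the shares and ratios below. The group means were 29.7% ± 1.50, 23.2% ± 0.91, 33.9% ± 0.61, 31.6% ± 2.49 and 36.2% ± 1.19 (SD, n = 3) on days 0, 1, 7 and 11 and in roots. Over the 4 leaf stages the share differed (exact permutation test over 369600 arrangements, one-sided p = 0.00162, adjusted over the 3 shares 0.00487), with 10.7 points between the lowest and highest stage.

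The 3 shares of a library make up the whole, so a lower share of 1 copy raises the others together. The tests of the 3 shares are therefore not separate evidence. Rht-B1 had its highest share on day 1, at 54.2%, 52.2% and 58.4% in plants 1, 2 and 3. Its means were 49.5% ± 2.41 on day 0, 54.9% ± 3.18 on day 1, 48.3% ± 0.63 on day 7, 50.8% ± 0.96 on day 11 and 44.1% ± 1.14 in roots (SD, n = 3). The difference over leaf stages was 6.62 points (exact permutation p = 0.0089, adjusted over the 3 shares 0.0133). Its call ended without the day 7 library of plant 3 (exact permutation, adjusted p = 0.0553) and on a log ratio scale (exact permutation, adjusted p = 0.0679). Rht-D1 ranged from 17.6% ± 1.87 on day 11 to 21.9% ± 2.35 on day 1 (SD, n = 3), a difference over leaf stages that the exact permutation test did not call (p = 0.135). Without the day 0 library of plant 3, whose Rht-D1 share of 17.1% lay below those of plants 1 and 2 (22.2% and 23.0%), it was called (exact permutation p = 0.0397). With any 1 plant left out entirely, which leaves 8 libraries, the calls of Rht-A1 and Rht-B1 ended (exact permutation, adjusted p of 0.0571 to 0.229 and 0.0571 to 0.257).

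Expressed as count ratios, Rht-B1 over Rht-A1 went from 1.67 ± 0.10 on day 0 to 2.37 ± 0.23 on day 1, 1.42 ± 0.01 on day 7 and 1.62 ± 0.15 on day 11, and stood at 1.22 ± 0.06 in roots (SD, n = 3). Rht-A1 over Rht-D1 was 1.46 ± 0.31 on day 0, 1.06 ± 0.09 on day 1, 1.91 ± 0.16 on day 7, 1.81 ± 0.31 on day 11 and 1.85 ± 0.20 in roots. Rht-B1 over Rht-D1 ran from 2.04 to 3.06 over the leaf libraries, whose stages overlapped. Its means were 2.44 ± 0.53 on day 0, 2.54 ± 0.44 on day 1, 2.72 ± 0.22 on day 7, 2.90 ± 0.27 on day 11 and 2.26 ± 0.22 in roots (SD, n = 3). The roots at 2.05 to 2.49 lay below the day 11 leaves at 2.59 to 3.06. Roots differed from day 11 leaves by 4.64 points for Rht-A1, -6.67 for Rht-B1 and 2.03 for Rht-D1. The groups of Rht-A1 and Rht-B1 did not overlap and gave an exact two-sided permutation p of 0.1, the smallest that 3 libraries against 3 allow, and Rht-D1 gave 0.2. Such separation was not counted for other homoeologous genes.

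**Figure D4:**
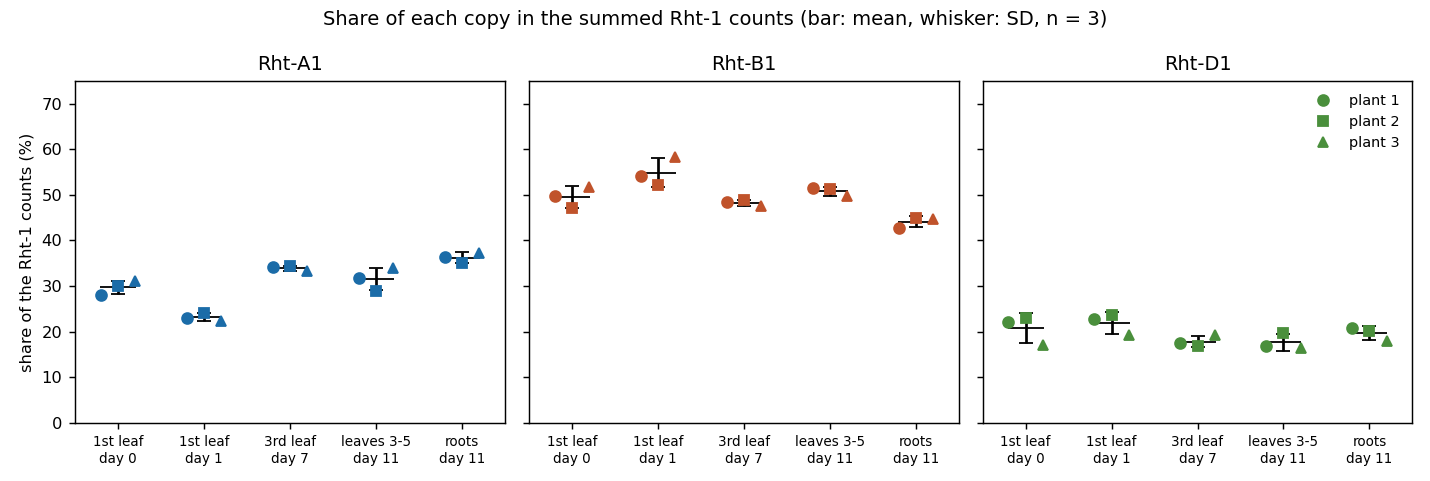
Share of each copy in the summed Rht-1 counts of a library in percent (y axis) by group (x axis), with 1 point per plant, the mean as a bar and the SD as a whisker (n = 3). On day 1 the Rht-A1 share is at its lowest and the Rht-B1 share at its highest, and in roots the Rht-A1 share is highest and the Rht-B1 share lowest.

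With TMM scaling, the copies varied by about as much over the leaf stages as a typical expressed gene and by less over leaves and roots together. The highest and lowest leaf group means of log2 CPM were 1.00 apart for Rht-A1, 1.07 for Rht-B1 and 1.31 for Rht-D1. Adding the roots left these unchanged, because roots lay inside the leaf range under that scaling. With library totals the root means lay above every leaf stage, at 49.1, 60.0 and 26.8 CPM for Rht-A1, Rht-B1 and Rht-D1. The highest leaf means, on day 0, were then 33.0, 54.9 and 22.3 CPM. The ranks given next were not computed with library totals. Among 28969 genes averaging at least 5 CPM, the median was 1.04 over leaf stages and 1.59 with roots. Over leaf stages 48.2%, 51.5% and 61.5% of those genes had a smaller difference than Rht-A1, Rht-B1 and Rht-D1, and with roots 29.3%, 32.1% and 41.6%. The spread between plants within leaf stages was taken as edgeR's biological coefficient of variation. This is a single estimate per gene over the leaf stages together, drawn toward that of other genes. It was 0.229, 0.218 and 0.215 for the copies, beside a median of 0.252 over all genes tested, not only those at 5 CPM. In the day 11 libraries it was 0.0982, 0.0981 and 0.115, beside 0.163.

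**Figure D5:**
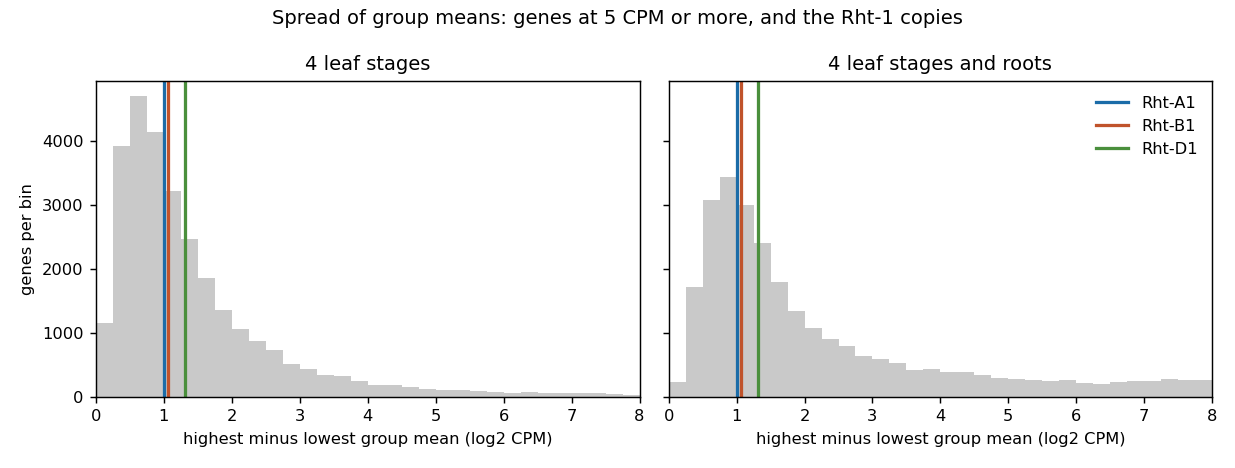
Number of genes averaging at least 5 CPM (y axis) by the difference between their highest and lowest group mean in TMM-scaled log2 CPM (x axis, drawn up to 8), over the 4 leaf stages and over these with roots. Vertical lines mark the Rht-1 copies, which lie near the leaf median of 1.04 and below the median of 1.59 with roots.

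The profiles of Rht-B1 and Rht-D1 were close to each other, and Rht-A1 ran less closely with both. Across the 15 libraries Pearson's r of log2 CPM was 0.943 between Rht-B1 and Rht-D1, 0.775 between Rht-A1 and Rht-B1 and 0.799 between Rht-A1 and Rht-D1 (0.955, 0.857 and 0.824 over the 12 leaf libraries). These are descriptions over libraries that share their scaling and groups. Of 27195 high-confidence genes compared, with a mean of 5 CPM or more, 0 were more alike to Rht-B1 than Rht-D1 was, whereas 226 were more alike to Rht-A1 than Rht-B1 and 142 more than Rht-D1. The genes most like Rht-A1 were TraesCS3B02G603800 (r = 0.939), TraesCS6B02G422600 (0.918), TraesCS2A02G448000 (0.917), TraesCS7B02G346700 (0.908) and TraesCS3D02G417300 (0.899). TraesCS3D02G417300 also led the list of Rht-D1 (r = 0.944), ahead of Rht-B1 and TraesCS5B02G380700 (0.940). After Rht-D1, the list of Rht-B1 held TraesCS1D02G334600 (0.933), TraesCS7B02G312700 (0.930), TraesCS4B02G195900 (0.923) and TraesCS6D02G281200 (0.922). The files give these identifiers no name or function.

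Genes next to the copies in identifier order did not share one pattern. Of the 10 high-confidence identifiers around each copy, 5 on either side, 7 near Rht-A1 and 8 near each of Rht-B1 and Rht-D1 were tested in leaves. Between day 0 and day 7, edgeR called 1, 1 and 2 of these lower and 0, 1 and 1 higher, beside 13.9% and 14.3% of all genes. In roots against day 11 leaves 5 of 9, 4 of 8 and 4 of 8 were higher and 2, 2 and 1 lower, beside 35.7% and 32.7% of all genes. The gibberellin pathway around Rht-1 could not be counted, since no identifier of the table matched a named gene in the reference list used here.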

How the data were processed

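The deposited table holds whole-number gene counts of the 15 libraries with no normalization by the authors, made with featureCounts 2.0.3 after HISAT2 2.2.1 per the submitters' processing notes. The sources used here do not state the genome build, annotation version, strand setting or treatment of reads with several matches. Groups and plant numbers come from the sample titles, and the table has 0 columns of no sample. None of the 269207 identifiers matched the 155467 genes of the RefSeq table used here (0 matches), and the names of the copies come with their identifiers.

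The main test was the quasi-likelihood test of edgeR 4.0.16 (R 4.3.3, TMM, filterByExpr) on all genes, with Benjamini-Hochberg adjustment and a call at an adjusted p under 0.05. The 12 leaf libraries shared 1 fit, and the 6 libraries of day 11 another. The SE is the log2 fold change divided by the square root of F, and log2 CPM used a prior count of 2. Shares were compared by exact permutation. Alternatives were DESeq2 1.42.0, other scalings, filters and sets of libraries, and the plant as a block. The named genes are the copies and, for each, the 5 genes with the highest r.

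The series design names 3 plants, and their numbers were taken to pair the libraries. Deviations from group means correlated at a median of 0.00 over 18 pairs of leaf libraries from 1 plant (-0.13 to 0.21, 4 above 0.1). Over 36 pairs from different plants the median was -0.0008 (-0.30 to 0.26, 2 above 0.1). These correlations thus did not set pairs from 1 plant apart. Using the plant as a block changed no call of a copy. No replicate pair agreed within sampling noise. Nothing states separate extraction or sequencing batches. The copies were picked by identifier, not by a measured value, but genes and tests were settled with earlier results of these data known. The omission of the day 0 library of plant 3 was added after its values were seen.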

Additional observations from a re-analysis of the deposited data

How the results depend on the processing

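The direction and call of roots against day 11 leaves held for the 3 copies under the 10 alternatives run. With library totals Rht-A1 differed by -0.56 between days 11 and 0, no longer called, and by 0.10 and 0.19 for days 7 and 11 against day 1, and Rht-B1 by -0.35 for day 11 against day 1. Day 11 against day 7, never called, became 0.093, 0.27 and 0.17 for Rht-A1, Rht-B1 and Rht-D1 with library totals, and Rht-B1 became 0.0165 with RLE factors, 0.0218 with high-confidence models, 0.0215 with the replicate block, 0.0166 with DESeq2 and 0.068 with only the 2 groups in the fit. With only 2 groups, day 7 against day 0 gave -0.88 for Rht-A1 and -1.10 for Rht-B1, neither called. In such a fit Rht-A1 was called at -0.42 for day 11 against day 1, where 59.6% of genes were called. The share of Rht-B1 varied by 0.21 as a log2 ratio, not called.

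Leaving out a plant or a single library gave these ranges. For day 7 against day 0 they were -1.09 to -0.56, -1.32 to -0.78 and -1.51 to -1.12 for Rht-A1, Rht-B1 and Rht-D1, and for day 7 against day 1 -0.57 to -0.044, -1.23 to -0.77 and -1.55 to -0.80. For day 11 against day 1 they were -0.57 to -0.19, -0.98 to -0.86 and -1.29 to -1.07, and for day 11 against day 7 -0.35 to 0.016, -0.18 to 0.25 and -0.27 to 0.26. Rht-A1 ranged from -1.31 to -0.74 for day 11 against day 0, and for day 1 against day 0 Rht-B1 ranged from -0.38 to 0.24 and Rht-D1 from -0.35 to 0.14, positive without plant 3. The joint F was 4.08 to 11.3, 6.42 to 34.9 and 8.09 to 52.8. The share range was 10.5 to 11.1, 4.79 to 8.29 and 3.51 to 6.10 points.

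Genes called between days 1 and 0 numbered 813, and 324 with the replicate block, 1561 with all 15 libraries in 1 fit, 4613 with DESeq2 and 0 to 1543 on leaving out libraries. The edgeR count was 0 without plant 1 and without plant 2, where 7828 and 8002 genes had an unadjusted p under 0.05 and DESeq2 was not run. Between days 7 and 0 it was 17732, 8034 with only 2 groups and 2389 to 20893 on leaving out libraries. The latter ranges were 5634 to 24513 for day 7 against day 1, 16494 to 29330 for day 11 against day 0, 17475 to 31848 for day 11 against day 1, 3357 to 15380 for day 11 against day 7 and 15048 to 36949 for the joint test. Apart from the day 1 count, the replicate block moved no count of calls by over 1.5 times and changed no call of a copy or share. The cause of these changes was not tested. With 3 plants a group, precision is limited: the intervals between days 7 and 11 allow differences from -0.72 to 0.50.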

Other observations

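Within a group, the share of Rht-D1 was lowest in plant 3 in 4 of the 5 groups, the exception being day 7, where plant 3 had the highest share. In that plant the counts of Rht-D1 on day 0 were 375 beside 683 of Rht-A1 and 1139 of Rht-B1, against 393, 498 and 881 in plant 1 and 442, 574 and 902 in plant 2. A plant effect was not tested.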
